A study of Mus musculus with 9 samples.

Results

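The R-spondins (Rspo1, Rspo2, Rspo3 and Rspo4) and the receptors Lgr4, Lgr5 and Lgr6 were examined in mouse bile duct organoids, 3-dimensional cultures of biliary epithelial cells. The 7 genes were chosen by name. Of these, 6 had a row among the 32137 genes listed and were measured, and Rspo3 was not analysed here. Lgr4 and Lgr5 passed the filter on low counts that left 17011 genes for testing, while Lgr6, Rspo1, Rspo2 and Rspo4 did not.

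All 9 libraries came from organoids of 1 male animal of mixed genetic background, with the genotype Axin2CreERT2+/-; R26-LSL-tdTom+/-. In such cells a tamoxifen-dependent Cre made under the Wnt-responsive gene Axin2 switches on the red reporter tdTom. Expansion took 2 to 4 days and differentiation 11 days, and every group received dexamethasone at 3 uM and 4-OHT at 500 nM in the last 24 h. The untreated group held sorted tdTom-negative cells without added Rspo1. The other groups received recombinant Rspo1 at 100 ng/ml in those 24 h and were sorted into tdTom-negative (Rspo1-negative) and tdTom-positive (Rspo1-positive) cells. No tdTom-positive untreated group was analysed. Each group had 3 libraries, 1 each from passages 5, 6 and 10. Because they share an animal, the p-values below measure the spread between passages of 1 line and not between animals.

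R-spondins are secreted proteins that amplify Wnt signalling. Bound to an Lgr receptor, they draw in the membrane ubiquitin ligases Znrf3 and Rnf43, which would otherwise remove Frizzled receptors from the cell surface, so that more Wnt receptor remains. Lgr5 is itself a Wnt target and marks stem cells of several epithelia, and in the liver it appears in duct-like cells after injury and in bile duct organoids, while Lgr4 is expressed more broadly.

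Library totals ran from 23423979 to 37351448 counts, and levels are given in CPM, the count as a rate over the library total after that total is scaled by the trimmed mean of M-values. Markers of the biliary epithelium summed to 8110 to 9990 CPM in untreated, 8170 to 9960 in Rspo1-negative and 7000 to 7180 in Rspo1-positive libraries. The Rspo1-positive range thus lay below those of the other groups. All 8 markers were detected above 1 CPM. Mesenchymal cells are a common source of R-spondins in tissues. Of their markers, all 6 with a row stayed under 1 CPM in every library, with Lum at 0, and they summed to 0.134 to 0.95 CPM in untreated, 0.133 to 0.423 in Rspo1-negative and 0.364 to 0.492 in Rspo1-positive libraries. All 7 endothelial markers with a row were also under 1 CPM, with Cdh5 at 0. Of the 8 hepatocyte markers, Cps1, Cyp3a11 and Cyp2e1 were under 1 CPM in every library, while Alb was at 3.91 to 15.3 CPM, Apoa1 reached 1.57 and Apob 1.41, and Ttr and Glul gave most of the summed 380 to 985 CPM. The leukocyte list summed to 53.6 to 76.7 CPM, nearly all of it from Csf1r, Cd68 and Itgam, while Ptprc, the pan-leukocyte surface protein, stayed under 1 CPM.

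The receptors are related enough that their reads could be confused, so their transcripts were compared first. The longest coding transcripts share no run near the read length of 75 bases. The longest identical runs for each pair of receptors, all inside the coding sequence and written 5′ to 3′, are the following.
Lgr4 and Lgr5, 15 bases: cagtgttgtgcattt
Lgr4 and Lgr6, 17 bases: tgaccttggctctcaac
Lgr5 and Lgr6, 18 bases: gacctcagtatgaacaac
No 75-base window of the Lgr4 or Lgr6 transcript occurred in a transcript of another gene, and neither did any window of Rspo1, Rspo2 or Rspo4. For Lgr5, 34 of 4640 windows did (0.733%), all between bases 3580 and 3689, after the coding sequence that ends at base 3008. None of the 6 genes shares annotated exon bases with another gene.

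Lgr4 (ENSMUSG00000050199, GRCm38 chromosome 2, 109917647 to 110014257, plus strand), the broadly expressed receptor, was the most abundant of the family in all 9 libraries. In untreated cells it stood at 69.0, 108 and 68.2 CPM at passages 5, 6 and 10, a mean of 81.8 ± 22.9 (SD, n = 3). In Rspo1-negative cells it stood at 32.2, 42.2 and 31.1 CPM, a mean of 35.2 ± 6.10 (SD, n = 3). In Rspo1-positive cells it stood at 49.8, 46.5 and 54.8 CPM, a mean of 50.4 ± 4.18 (SD, n = 3). The untreated libraries were the highest, the Rspo1-negative libraries the lowest, and no pair of groups overlapped. Of all genes tested, 20.0% were lower without overlap in Rspo1-negative than in untreated cells, 11.8% were so in Rspo1-positive against untreated cells, 24.6% were higher without overlap in Rspo1-positive than Rspo1-negative cells, and 20.6% were lower there, so non-overlap alone is common in these data.

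Lgr4 fell in Rspo1-negative cells relative to untreated cells, by 1.22 on the log2 scale (SE 0.20), or 2.33-fold, with an adjusted p of 0.00289 in edgeR's quasi-likelihood test. It was lower at each passage, at 0.466, 0.39 and 0.457 times the untreated level at passages 5, 6 and 10. In this comparison 13.9% of all genes tested were called lower. The call held in all 16 other fits that were tried, with changes from -1.34 to -0.86.

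Between Rspo1-positive and untreated cells, the Lgr4 difference was -0.70 (SE 0.20, 95% interval -1.13 to -0.27) with an adjusted p of 0.0717 in edgeR, against a background of 2.13% of genes called lower. With passage as a block, the difference was -0.66 and the adjusted p 0.019, and with DESeq2 the adjusted p was 0.0194. The call thus depended on the fit and on the libraries in it. Without the untreated passage 6 library, which was the highest of the 9, the difference was -0.445 with an adjusted p of 0.189 in edgeR, and without the untreated passage 10 library it was -0.82 with an adjusted p of 0.0465.

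Within the Rspo1-treated cultures, Lgr4 was 0.52 higher (log2, SE 0.20, 95% interval 0.09 to 0.95) in tdTom-positive than in tdTom-negative cells, with an adjusted p of 0.0771 in edgeR. The Rspo1-positive library was 1.55, 1.10 and 1.76 times the Rspo1-negative library at passages 5, 6 and 10. With passage as a block the difference was 0.55 and the adjusted p 0.0204. With an offset for GC content and length together it was 0.10, with an adjusted p of 0.763 in edgeR, and 0.12 with an adjusted p of 0.593 when passage was also a block. In this comparison 14.6% of genes were called higher and 9.78% lower in the main fit, 59.8% of the calls being higher, against 43.5% of the calls with that offset.

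Lgr5 (ENSMUSG00000020140, GRCm38 chromosome 10, 115450311 to 115587780, minus strand) moved the other way. In untreated cells it was close to the limit of detection, at 0.369, 0.0669 and 0.173 CPM at passages 5, 6 and 10, which are 12, 2 and 6 counts. In Rspo1-negative cells it stood at 3.03, 5.76 and 0.974 CPM, from 114, 140 and 23 counts. In Rspo1-positive cells it stood at 5.64, 10.4 and 1.62 CPM, from 229, 309 and 58 counts. The means were 0.203 ± 0.153, 3.26 ± 2.40 and 5.90 ± 4.41 CPM (SD, n = 3 each). All 6 libraries with Rspo1 were above all 3 without it, and the Rspo1-positive and Rspo1-negative libraries overlapped. Of all genes tested, 11.4% were higher without overlap in Rspo1-positive than in untreated cells, and 16.4% were so in Rspo1-negative cells.

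**Figure D1:**
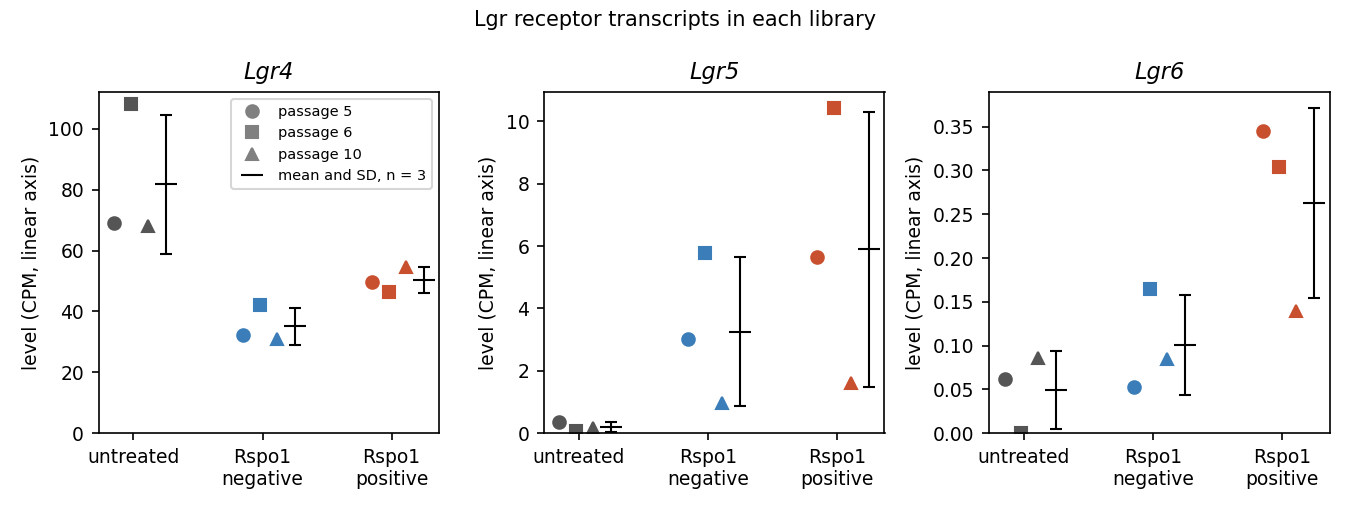
Levels of Lgr4, Lgr5 and Lgr6 in CPM on linear axes, with 1 symbol per library (shape gives the passage) and, beside them, the mean and SD of the 3 libraries of each group. Lgr4 is highest in untreated cells (mean 81.8), Lgr5 is near 0 there (mean 0.203), and Lgr6 stays under 0.35 CPM in every library.

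Lgr5 rose in both Rspo1 groups relative to untreated cells. The rise was 4.82 on the log2 scale (SE 0.88), or 28.2-fold, in Rspo1-positive cells, with an adjusted p of 0.00991 in edgeR. In Rspo1-negative cells it was 3.97 (SE 0.87), or 15.6-fold, with an adjusted p of 0.0109 in edgeR. The background of genes called higher was 3.07% and 8.0% in these comparisons, which share the untreated libraries. Both calls held in all 16 other fits, at 4.13 to 5.54 and at 3.34 to 4.69. The untreated level rests on 20 counts in all, and the levels with Rspo1 also differed widely between passages. At passage 6, where that level was 2 counts, the Rspo1-positive library was 156 times the untreated one, against 15.3 and 9.4 times at passages 5 and 10. In bulk RNA, more cells with Lgr5 and more Lgr5 RNA per cell cannot be told apart.

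Whether tdTom-positive cells held more Lgr5 than tdTom-negative cells of the same treated cultures depended on the fit. The ratio within a passage was 1.86, 1.81 and 1.67 at passages 5, 6 and 10, higher in tdTom-positive cells in 3 of 3 passages. The difference over groups was 0.85 on the log2 scale (SE 0.69, 95% interval -0.68 to 2.38) with an adjusted p of 0.40 in edgeR, and 0.83 with an adjusted p of 0.0937 with passage as a block. The authors' deposited table for this comparison gives Lgr5 a log2 fold change of 0.82 (standard error 0.259) and an adjusted p of 0.00489. A DESeq2 fit with passage as a block on the 6 libraries compared, added after that table had been read, gave 0.81 with an adjusted p of 0.00495. The same DESeq2 fit on all 9 libraries, which estimates 1 spread over all groups, gave 0.81 with an adjusted p of 0.386. The size of the difference was thus alike in these fits, and the call was made only in the DESeq2 fit to the 6 libraries, of 16 other fits tried. Leaving out single libraries without a block moved it from 0.16, without the Rspo1-positive passage 6 library, to 1.5, without the Rspo1-negative passage 6 library. Such a fit leaves the passages unequal between the groups, so its value also holds the difference in Lgr5 between passages. It therefore does not measure how steady the ratio within a passage was. With the offset for GC content and length and all libraries kept, the difference between the groups was 0.40.

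For Lgr4 the authors' deposited tables give -0.66 (standard error 0.182, adjusted p 0.00325) for Rspo1-positive against untreated cells, -1.18 (0.172, 4.39e-10) for Rspo1-negative against untreated cells and, between the sorted fractions of treated cultures, 0.51 (0.155, 0.0035). The DESeq2 fit with the block on the 6 libraries gave -0.66, -1.18 and 0.49, called in each comparison with adjusted p of 0.00304, 8.29e-10 and 0.00473.

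**Figure D2:**
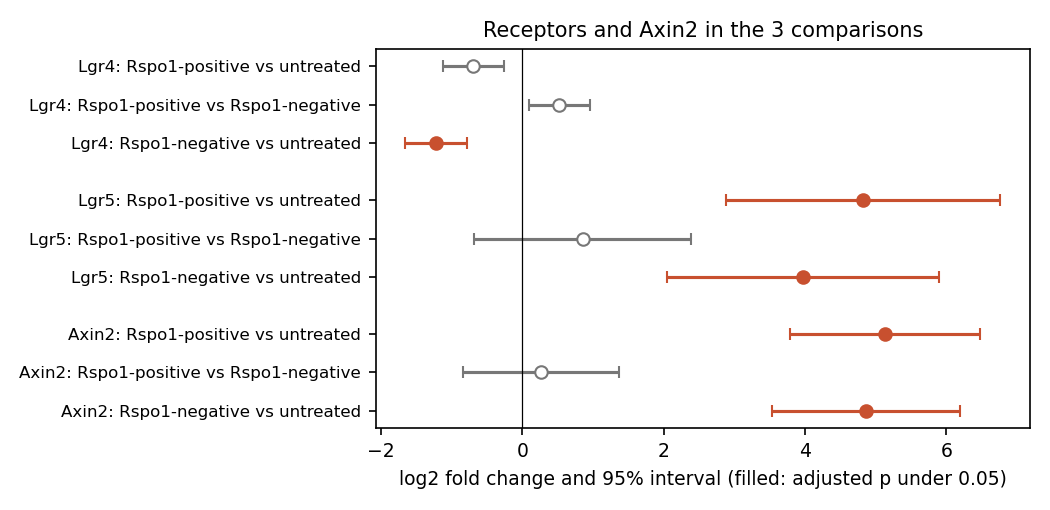
Log2 fold changes (horizontal axis) of Lgr4, Lgr5 and Axin2 in the 3 comparisons, with 95% intervals from the edgeR fit without a block, filled where the adjusted p is under 0.05. Lgr4 lies left of 0 against untreated cells (-1.22 in Rspo1-negative cells) and Lgr5 right of 0 (4.82 and 3.97).

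Because Lgr4 fell while Lgr5 rose from a very low level, the makeup of the receptor RNA was compared on the deposited FPKM values, which take gene length into account. The summed level of Lgr4, Lgr5 and Lgr6 was 13.6, 21.0 and 13.3 FPKM in untreated libraries at passages 5, 6 and 10. It was 7.23, 9.55 and 6.33 FPKM in Rspo1-negative and 11.0, 11.4 and 10.8 FPKM in Rspo1-positive libraries. The sum was highest in the untreated libraries, and the 3 groups did not overlap. Lgr4 made up 80.5 to 99.9% of the sum, so this order largely repeats that of Lgr4 given above. With the offset for GC content and length, the Lgr4 difference between the Rspo1 groups was 0.10 on the log2 scale. Lgr5 made up 0.561, 0.0652 and 0.267% of the sum in untreated libraries, 9.04, 12.6 and 3.19% in Rspo1-negative libraries and 10.6, 19.1 and 3.03% in Rspo1-positive libraries. Lgr4 therefore remained the larger part in every library: its FPKM was 4.22 times that of Lgr5 in the library where the ratio was lowest, Rspo1-positive at passage 6, and 32.0 times in the Rspo1-positive library at passage 10. Between the Rspo1-positive and Rspo1-negative groups the Lgr5 shares overlapped, and at passage 10 they were 3.03 and 3.19%.

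**Figure D3:**
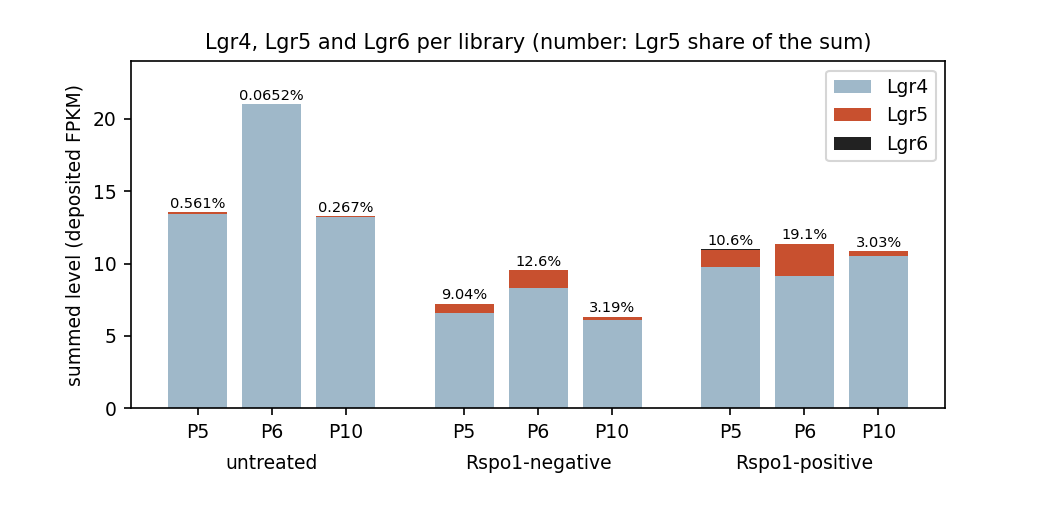
Stacked bars of deposited FPKM for Lgr4, Lgr5 and Lgr6 in each of the 9 libraries, grouped by sort and treatment and labelled by passage (P), with the Lgr5 share of the sum above each bar. Lgr4 is the larger part everywhere, and the Lgr5 share is under 1% in untreated libraries and between 3.03 and 19.1% with Rspo1.

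Lgr6 (ENSMUSG00000042793, GRCm38 chromosome 1, 134983301 to 135105276, minus strand), a receptor known from skin and its appendages, was barely detected. It had 2, 0 and 3 counts in untreated libraries, 2, 4 and 2 in Rspo1-negative libraries and 14, 9 and 5 in Rspo1-positive libraries at passages 5, 6 and 10. All 3 Rspo1-positive libraries were above the 3 untreated ones, as 11.4% of the genes tested were in that comparison, while the Rspo1-negative libraries overlapped with the untreated ones. Summed over 3 libraries and scaled by depth, Rspo1-positive cells held 5.13 times the untreated level, with a 95% interval of 1.96 to 17.0 that covers counting error only. The ratio to Rspo1-negative cells was 2.82 (1.25 to 7.17), and that of Rspo1-negative to untreated cells 1.82 (0.524 to 7.06). In the edgeR fit without the filter, which alone tested this gene, the Rspo1-positive to untreated difference was 2.31 (SE 0.92) with an adjusted p of 0.198. A difference between groups in Lgr6 was thus not called at this depth.

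Transcripts of the measured R-spondins, Rspo1, Rspo2 and Rspo4, were at the floor in the cells themselves. Rspo1 (ENSMUSG00000028871, GRCm38 chromosome 4, 124986430 to 125009099, plus strand), whose protein was added to the medium of 6 of the 9 samples, had 1 count in the Rspo1-negative library of passage 10 and 0 in the other 8. Rspo2 (ENSMUSG00000051920, chromosome 15, 43020794 to 43170826, minus strand) and Rspo4 (ENSMUSG00000032852, chromosome 2, 151842927 to 151874668, plus strand) each had 1 count, in the Rspo1-positive library of passage 10, and 0 in the other 8. A count of 0 allows up to 3 counts, which is 0.0739 to 0.127 CPM over the 9 libraries on the same scaled totals. Expression of these ligands above that level was not detected, in either treatment, and no fold change is given.

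The Lgr5 level also differed between passages. Each passage held 1 library of each group, so passage cannot be told apart from other differences between these cultures. The passage tests treat the libraries of a passage as its replicates. In the fit with group and passage, Lgr5 differed among passages, with passage 6 at 0.59 and passage 10 at -1.67 relative to passage 5 on the log2 scale and an adjusted p of 0.0205 in edgeR, where 12.0% of genes were called. The adjusted p was 0.188 with DESeq2. It was also above 0.05 without the Rspo1-negative library of passage 5 (0.0617) or 10 (0.0902), and without the Rspo1-positive library of passage 6 (0.0813) or 10 (0.163). The lowest Lgr5 levels with Rspo1, 0.974 and 1.62 CPM, were both at passage 10. In untreated cells the order differed, with passage 6 the lowest (0.0669 CPM, 2 counts), below passage 10 (0.173) and passage 5 (0.369). Lgr4 gave an adjusted p of 0.278 for passage in edgeR, with passage 6 at 0.33 and passage 10 at 0.03.

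Axin2, the negative regulator of Wnt signalling whose locus drives the sort, is the reference for the Wnt response. It stood at 1.32, 1.74 and 5.96 CPM in untreated, 44.4, 97.4 and 124 CPM in Rspo1-negative and 75.7, 88.8 and 155 CPM in Rspo1-positive libraries at passages 5, 6 and 10. The untreated libraries were far below the others, and the groups with Rspo1 overlapped, so that the sort by tdTom did not separate the libraries by Axin2 RNA. The Rspo1-positive to Rspo1-negative difference of Axin2 was 0.26 (SE 0.50) with an adjusted p of 0.733 in edgeR. Over passages Axin2 went in the direction opposite to Lgr5 between passages 5 and 10: it was 1.48 higher at passage 10, with an adjusted p of 0.00653 in edgeR. As for Lgr5, passage cannot be told apart here from other differences between the cultures.

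**Figure D4:**
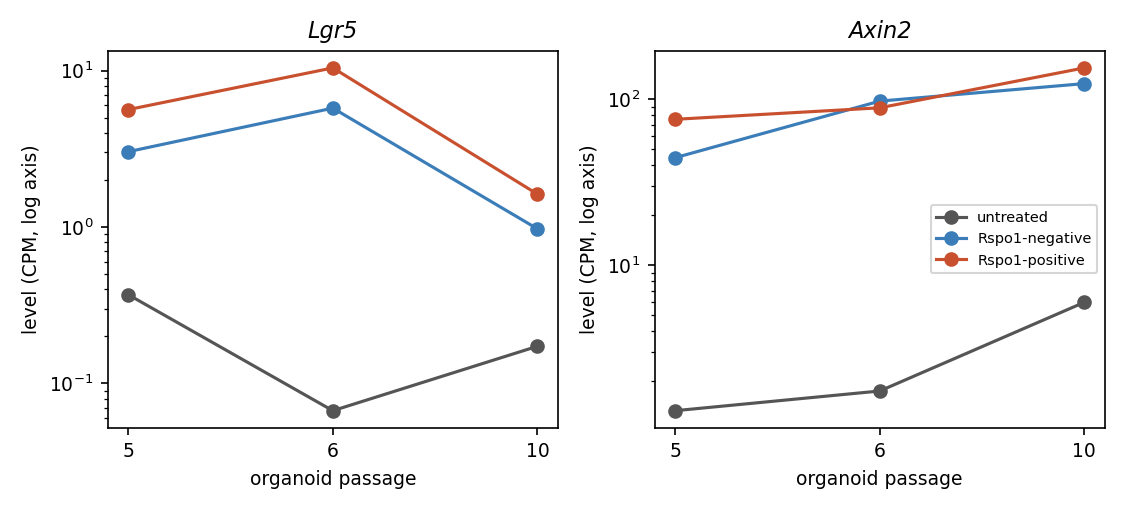
Levels of Lgr5 and Axin2 in CPM on log axes against organoid passage, with 1 point per library and lines joining libraries of a group. With Rspo1, Lgr5 is lowest at passage 10 (0.974 and 1.62 CPM) while Axin2 is highest there (124 and 155 CPM).

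Most of the partners through which R-spondins act were not called, and neither were most of all genes tested. Of 23 partners listed (the ligases, Wnt co-receptors, Frizzled receptors and other binding partners), 20 were tested. In Rspo1-positive against untreated cells, 3 were higher, 1 was lower and 16 were not called, with a median log2 fold change of -0.06 against -0.01 over all genes tested. In Rspo1-negative against untreated cells, 4 were higher and 3 lower, with a median of -0.03 against -0.02. In Rspo1-positive against Rspo1-negative cells, 4 were higher and 1 was lower, with a median of -0.03 against 0.03. The partners higher between the Rspo1 groups were Znrf3, Lrp6, Fzd5 and Bmpr1a. The backgrounds for a call in either direction were 5.21%, 21.9% and 24.3%.

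The ligases that R-spondins neutralise differed in pattern. Rnf43 stood at 113 ± 8.86 CPM in untreated, 196 ± 42.7 in Rspo1-negative and 193 ± 30.3 in Rspo1-positive cells (SD, n = 3 each). It rose by 0.80 (SE 0.18, adjusted p 0.0119 in edgeR) in Rspo1-negative and by 0.78 (SE 0.18, adjusted p 0.032) in Rspo1-positive cells. The second call was lost when any of the 6 libraries was left out in the fit without a block, with adjusted p of 0.0543 to 0.128. Znrf3 stood at 25.8 ± 4.96, 24.3 ± 6.57 and 46.9 ± 3.43 CPM, so that the tdTom-positive cells stood apart. It was 0.95 higher (SE 0.20, adjusted p 0.00909 in edgeR) in Rspo1-positive than Rspo1-negative cells, in all 16 other fits as well. Against untreated cells it was 0.86 higher (SE 0.20, adjusted p 0.0337), a call lost on leaving out either of 2 untreated libraries (passages 5 and 10) or any Rspo1-positive library, with adjusted p up to 0.119. In Rspo1-negative against untreated cells Znrf3 differed by -0.09 (SE 0.20, adjusted p 0.795 in edgeR).

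Among the Wnt receptors, Fzd5 had the same order of groups as Lgr4. Its means were 127 ± 20.4, 44.6 ± 5.53 and 63.6 ± 9.69 CPM in untreated, Rspo1-negative and Rspo1-positive cells. It fell by 1.51 (SE 0.16, adjusted p 0.000993 in edgeR) in Rspo1-negative and by 1.0 (SE 0.16, adjusted p 0.00527) in Rspo1-positive cells, in all 16 other fits too. Fzd9, at 0.524 ± 0.189 CPM in untreated cells, rose by 2.22 (SE 0.35, adjusted p 0.00258 in edgeR) in Rspo1-negative cells. In Rspo1-positive cells it rose by 1.66 (SE 0.35, adjusted p 0.0212), a call lost in 5 of 16 other fits. Fzd2 rose by 1.10 (SE 0.27, adjusted p 0.0167 in edgeR) in Rspo1-negative cells, a call lost in 3 of 16 other fits. The co-receptor Lrp6 fell by 1.21 (SE 0.21, adjusted p 0.004 in edgeR) in Rspo1-negative cells, or by 0.59 (adjusted p 0.0388) with the offset for GC content and length, whereas the co-receptor Lrp5 rose by 0.68 (SE 0.15, adjusted p 0.0114). Bmpr1a, the BMP receptor that some R-spondins bind, fell by 0.88 (SE 0.16, adjusted p 0.00458 in edgeR) in Rspo1-negative cells, but differed by -0.10 (adjusted p 0.666) with the offset for GC content and length. Lrp6, Fzd5 and Bmpr1a, called higher between the Rspo1 groups at 0.89 (adjusted p 0.0135 in edgeR), 0.51 (0.0417) and 0.63 (0.018), all lost that call with the offset. They also lost it on leaving out 3, 5 and 3 of the 6 libraries in turn (adjusted p up to 0.0635, 0.174 and 0.106), each without the Rspo1-positive library of passage 5 and the Rspo1-negative library of passage 10.

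**Figure D5:**
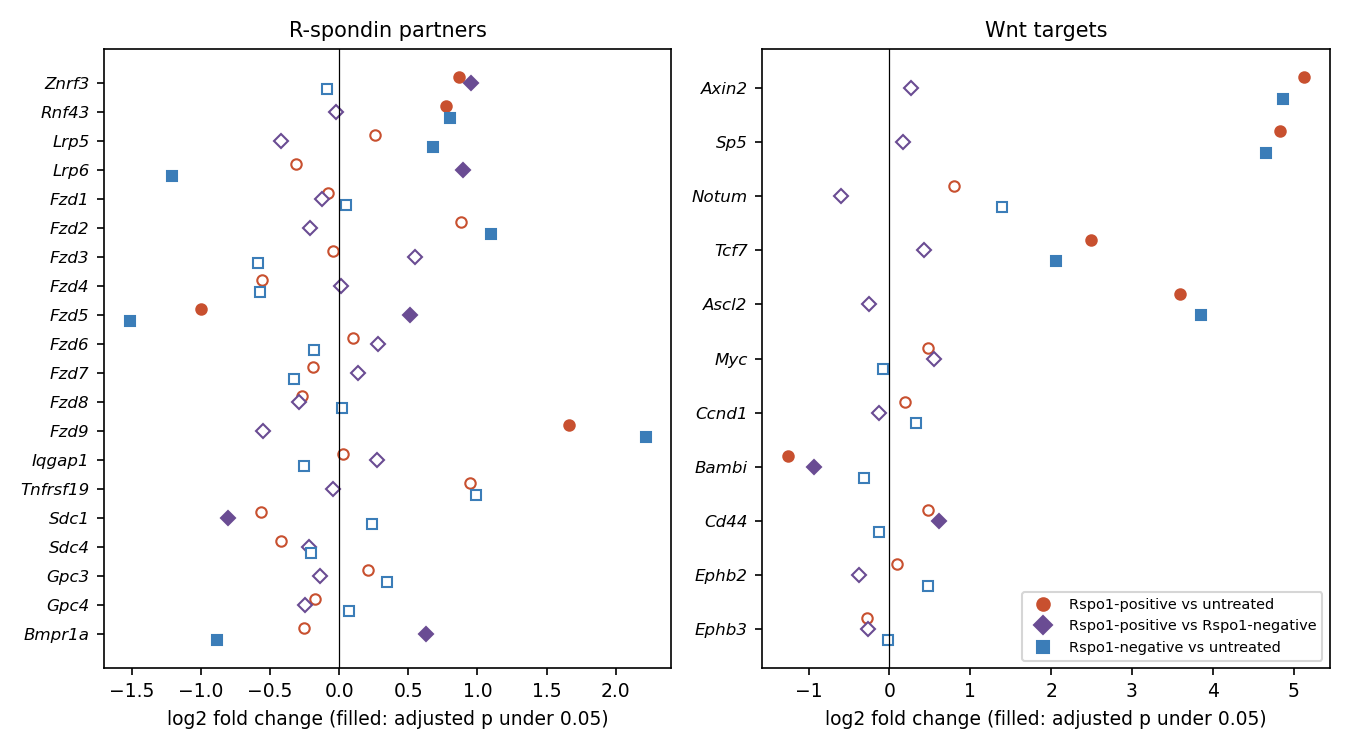
Log2 fold changes (horizontal axes) of the 20 tested R-spondin partners (left) and the 11 tested Wnt targets (right) in the 3 comparisons, filled where the edgeR adjusted p is under 0.05. Axin2, Sp5, Tcf7 and Ascl2 lie to the right in both comparisons with untreated cells, while most partners lie between -1 and 1.

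The Wnt targets listed beside Lgr5 gave a response in a few genes. Of 16 listed, 11 were tested. In Rspo1-positive against untreated cells 4 were higher (Axin2, Sp5, Tcf7 and Ascl2) and 1 was lower (Bambi), against 3.07% and 2.13% of all genes tested, with a median of 0.48 against -0.01. Treatment and tdTom gate differ together in this comparison. As the Axin2 locus drives the reporter, the call of Axin2 there is not independent of the sort. In Rspo1-negative against untreated cells the same 4 were higher and none lower, against 8.0% and 13.9%, with a median of 0.48 against -0.02, and the comparisons share the untreated libraries. The transcription factor Sp5 rose by 4.83 (SE 0.56, adjusted p 0.00125 in edgeR) and 4.66 (SE 0.56, adjusted p 0.00105). Ascl2, a transcription factor of intestinal Lgr5 stem cells, rose by 3.60 (SE 0.27, adjusted p 0.000302) and 3.85 (SE 0.27, adjusted p 0.000453). Between the Rspo1 groups only Cd44, a cell adhesion receptor, was called higher (0.61, SE 0.14, adjusted p 0.0135 in edgeR) and Bambi lower (-0.93, SE 0.21, adjusted p 0.0113), 1 each of 11 against 14.6% and 9.78% of all genes. The Cd44 difference was -0.003 with the offset for GC content and length, and its call was also lost without the Rspo1-negative library of passage 5 or 10 or the Rspo1-positive library of passage 10 (adjusted p up to 0.0735 in edgeR).

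Of 10 genes that accompany Lgr5 in stem cells of other epithelia, 9 were tested and 2 rose in both Rspo1 groups against untreated cells, where 3.07% (Rspo1-positive) and 8.0% (Rspo1-negative) of all genes were called higher. These were Cdca7, a MYC-responsive gene, by 1.94 (SE 0.22, adjusted p 0.00117 in edgeR) in Rspo1-positive and 1.56 (SE 0.21, adjusted p 0.00152) in Rspo1-negative cells, and Lrig1, a brake on growth factor receptors, by 0.86 (SE 0.18, adjusted p 0.0192) and 1.09 (SE 0.18, adjusted p 0.00309). The Lrig1 call in Rspo1-positive cells was lost without the untreated library of passage 5 or 10 or the Rspo1-positive library of passage 6 or 10 (adjusted p 0.0516 to 0.0868 in edgeR). Slc12a2 and Bmi1 fell in Rspo1-negative against untreated cells, by 0.89 (adjusted p 0.0389 in edgeR) and 0.95 (adjusted p 0.01), where 13.9% of all genes were called lower. The call for Slc12a2 was lost in 8 of 16 other fits, and that for Bmi1 with the offset for GC content and length (-0.42, adjusted p 0.131). Between the Rspo1 groups these 2 of the 9 were called higher in Rspo1-positive cells and none lower, a share near the 14.6% of all genes, and both lost the call with the offset. Olfm4, a marker of intestinal Lgr5 cells, stood at 310 ± 237, 304 ± 185 and 420 ± 205 CPM and was not called in any comparison. Of 5 other members of the wider glycoprotein hormone and relaxin receptor family listed, Tshr and Rxfp2 had a row and neither passed the filter on low counts. Of 19 Wnt ligands listed, 9 were tested and none was called higher, which at backgrounds of 3.07%, 14.6% and 8.0% is no result about the list. Called lower were 2 of the 9 in Rspo1-positive against untreated cells, 3 between the Rspo1 groups and 1 in Rspo1-negative against untreated cells. The shares of all genes called lower there were 2.13%, 9.78% and 13.9%. Wnt4 and Wnt7a were lower in Rspo1-positive cells, by -1.20 (adjusted p 0.027 in edgeR) and -0.75 (adjusted p 0.0475) against untreated cells and by -0.94 (adjusted p 0.0276) and -0.78 (adjusted p 0.015) against Rspo1-negative cells. Wnt7b was also lower between the Rspo1 groups (-0.69, adjusted p 0.0127 in edgeR). With the offset for GC content and length these 3 differences were -0.84 (adjusted p 0.0962), -0.54 (0.0831) and -0.43 (0.119) for Wnt4, Wnt7a and Wnt7b. Without the Rspo1-positive library of passage 6 they also lost the call (adjusted p 0.0892, 0.0607 and 0.0569 in edgeR), and Wnt4 did so without the Rspo1-negative library of passage 5 or 6 or the Rspo1-positive library of passage 10 (up to 0.0952). Wnt16 fell in Rspo1-negative against untreated cells (-2.36, adjusted p 0.0407 in edgeR), a call lost in 7 of 16 other fits. Its level was low, at 0.944 ± 0.702 CPM in untreated and 0.188 ± 0.123 CPM in Rspo1-negative cells. The call against untreated cells was lost for Wnt4 without the untreated library of passage 5 or 6 or the Rspo1-positive library of passage 6 or 10 (adjusted p up to 0.13), and for Wnt7a without any of the 6 libraries (0.077 to 0.215). That call for Wnt4 was also lost when only the 6 libraries compared were fitted (-1.19, adjusted p 0.0622 in edgeR).

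The 250 bases before the starts of Lgr4, Sp5 and Axin2 are shown from the RefSeq promoters of GRCm38.p6. These gave a window for 4 of the 7 R-spondin and receptor genes (Lgr4, Lgr6, Rspo1 and Rspo4) and none for Lgr5, Rspo2 and Rspo3. The windows were searched for CTTTGA, the core of the motif bound by TCF/LEF, the DNA-binding factors of Wnt signalling, on either strand (TCAAAG on the other). Capitals mark a match, and all windows shown are on the plus strand.
Lgr4, chr2:109917397-109917646: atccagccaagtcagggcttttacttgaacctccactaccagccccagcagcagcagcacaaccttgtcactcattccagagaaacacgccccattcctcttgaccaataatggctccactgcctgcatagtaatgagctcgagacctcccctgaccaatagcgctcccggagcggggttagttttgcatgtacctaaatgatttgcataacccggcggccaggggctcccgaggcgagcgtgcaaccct
Sp5, chr2:70474673-70474922: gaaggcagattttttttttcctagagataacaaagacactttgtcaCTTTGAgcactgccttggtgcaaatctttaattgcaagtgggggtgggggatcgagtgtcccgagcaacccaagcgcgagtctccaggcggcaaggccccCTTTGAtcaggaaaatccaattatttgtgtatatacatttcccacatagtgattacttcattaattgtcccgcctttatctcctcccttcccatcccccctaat
Axin2, chr11:108920099-108920348: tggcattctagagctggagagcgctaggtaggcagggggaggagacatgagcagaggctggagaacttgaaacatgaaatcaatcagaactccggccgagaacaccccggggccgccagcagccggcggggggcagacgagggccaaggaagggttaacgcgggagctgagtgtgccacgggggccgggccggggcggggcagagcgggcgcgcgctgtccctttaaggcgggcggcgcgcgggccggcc
The Sp5 window holds 2 matches, beginning 204 and 104 bases before the start. The Lgr4, Lgr6, Rspo1, Rspo4 and Axin2 windows, from 250 bases before to 50 bases after the start, hold none. The windows of Tcf7 (2 windows) and Ascl2, the other Wnt targets called higher against untreated cells, hold none either. Of 32851 promoters of that length, 16.0% hold at least 1. A match describes these letters and is no measure of binding.

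Genes whose log2 level was most like that of each receptor over the 9 libraries were named by Pearson's r, among genes with a mean log2 CPM of at least 2. For Lgr4 they were 1190002N15Rik (r = 0.988), D1Ertd622e (0.979), Slc44a1 (0.978), Tox (0.973) and Spin1 (0.973). For Lgr5 they were Atg16l2 (0.963), Rec8 (0.942), Tbl3 (0.942), Top3b (0.938) and Rfng (0.936). All points share their libraries, and the values describe likeness only. Slc44a1, a choline transporter, stood at 120 ± 17.1, 65.9 ± 4.21 and 83.5 ± 9.11 CPM in untreated, Rspo1-negative and Rspo1-positive cells, the same order of groups as Lgr4. Rec8, a cohesin subunit known from meiosis, stood at 9.55 ± 1.11, 22.9 ± 1.72 and 24.7 ± 2.99 CPM, with a smaller spread between passages than Lgr5.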

How the data were processed

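RNA was read as single-end 75 bp reads from 9 libraries, per the labels' protocols. The deposited tables hold raw counts and FPKM per gene, per the file headers. The submitters' processing notes name Trimmomatic 0.35, FastQC 0.11.2, STAR 2.5.1b, featureCounts, DESeq2 and GRCm38, and the annotation and strand setting are not given in the sources used here. The authors' deposited comparison tables cover 15807 genes, with raw and adjusted p-values beside log2 fold changes and their standard errors. Deposited FPKM values, whose scaling followed median-of-ratios size factors, entered no test.

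Counts were fitted in R 4.3.3 with edgeR 4.0.16 (filterByExpr with minimum count 10 and total 15, TMM, 1 quasi-likelihood fit over 9 libraries by group, Benjamini-Hochberg over 17011 genes, threshold 0.05). Intervals use edgeR's moderated degrees of freedom. Alternatives were DESeq2 1.42.0, other scalings, no filter, a GC content and length offset (GENCODE M21, 99.94% of genes tested), only the 6 libraries compared, a passage block and leaving out each library. The comparisons of groups that left out a library had no passage block. Replicate numbers mark shared passages, per the labels, and pair the samples: deviations correlated at 0.123 to 0.573 in 9 pairs of the same passage and at -0.476 to 0.0826 in 18 others. No replicates agreed within sampling noise. In data simulated on these counts, 4-fold changes were recovered for 95%, 99% and 99% of changed genes and 2-fold for 43%, 53% and 48% (for tdTom-positive treated against untreated cells, for the fractions of treated cultures and for tdTom-negative treated against untreated cells). The simulation took means and library sizes from these data, with 1 dispersion of 0.05 for every gene and no passage effect. Its rates therefore need not hold for genes that spread more between libraries. The genes and lists were chosen with earlier results of these data known. The rule for named genes allowed any gene of those lists, with counts over the whole list, and the 5 genes most correlated with each tested receptor.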

Additional observations from a re-analysis of the deposited data

How the results depend on the processing

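Across 656 refits of 41 called changes in genes other than Lgr4 and Lgr5, 559 kept their direction and side of the threshold. Of the rest, 93 lost the call and 4 changed sign. The changes of sign came with the GC content and length offset, without and with the passage block. Bmpr1a between Rspo1-positive and Rspo1-negative cells was then -0.208 and -0.208, and Cd44 was -0.003 and -0.002. The refits of Lgr4 and Lgr5 are given apart from this count. The genes called numbered 886 for Rspo1-positive against untreated cells, 4141 for Rspo1-positive against Rspo1-negative and 3724 for Rspo1-negative against untreated. With the passage (replicate) block they were 2247, 6624 and 6039. With the block in DESeq2 they were 2504, 6629 and 6117, and with that fit on only the 6 libraries compared 2165 and 7175 for the first pair. The block with the offset gave 2921 for the first, and the offset alone gave 1458 for the sorted fractions of treated cultures and 1501 for Rspo1-negative against untreated. The first was 1446 without a filter and 1506 with DESeq2, and Rspo1-negative against untreated gave 2299 on only the 6 libraries compared. Leaving out libraries gave 390 to 899, 2061 to 4068 and 1800 to 3772. The share of calls that were higher in Rspo1-negative against untreated cells was 36.5%, but 49.5% with upper-quartile scaling and 47.8% with the offset. In Rspo1-positive against untreated cells it was 59.0%, but 39.8% with block and offset. Passage gave 2038 genes, 3782 without a filter and 916 to 3690 on leaving out libraries. Lgr4 in Rspo1-positive against untreated cells was called without a filter (-0.675), with DESeq2 (-0.702), with the offset (-0.774), with the block (-0.659), with block and offset (-0.741), with the block in DESeq2 (-0.662) and with that fit on 6 libraries (-0.664), and ranged from -0.818 to -0.445 on leaving out libraries. Against Rspo1-negative cells it was called with the block (0.546), with the block in DESeq2 (0.514), on only the 6 libraries (0.524) and with the block in DESeq2 on those 6 (0.494). Lgr5 was called there only in the last of these fits (0.807). The block changed no other call named. For passage, the adjusted p of Lgr5 was 0.188 with DESeq2 and 0.000111 to 0.163 on leaving out libraries. The DESeq2 fits with the block were chosen after seeing the data. The cause of these changes was not tested. Depth limits Lgr6, Rspo1, Rspo2 and Rspo4, which rest on few or no counts.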
